A study of Danio rerio with 186 samples.

Results

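The genes described here are 8 transcription factor genes known from endocrine cells of the pancreas in general: neurod1, isl1, pax6a, pax6b, insm1a, insm1b, rfx6 and foxa2. They are listed by name, and make up 8 of the 31953 gene rows of the deposited count table. Reads were found for 7 of the 8 in every group of cells, and pax6a had none.

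Endocrine cells of the pancreas arise from progenitors that switch on a cascade of transcription factors, and part of that cascade stays on in the finished islet cell whatever hormone it makes. NEUROD1, ISL1, PAX6, INSM1 and RFX6 in mammals act in the formation and upkeep of several islet cell types, and FOXA2 opens chromatin for other factors in the gut endoderm, the pancreas bud and the mature islet. Zebrafish keep duplicated copies of some of these genes, among them pax6a with pax6b and insm1a with insm1b.

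The study sorted single cells of the zebrafish pancreas at 30 days after fertilisation and sequenced each by Smart-Seq2, a plate method that reads whole transcripts without molecular identifiers. All fish carried 2 transgenes, Tg(ins:BB1.0L), named for the insulin gene ins, and TgBAC(sst1.1:memEGFP), named for the somatostatin gene sst1.1, so no cell came from fish without them, and growth was labelled Normal for all. The gates were sst1.1+ ins+ on plate 3, with 57 of 60 cells kept, sst1.1+ on plate 4, with 61 of 66 kept, and ins+ on plate 4, with 24 of 27 kept, and on plate 3, with 32 of 33 kept. The plate is the number before the well in the sample titles. No animal is named, so each gate on each plate is 1 pool of cells with no replicate check, and no test between gates was made.

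Each level is given in CPM, which is the number of reads of a gene times 1e6 over the reads on all genes, in 1 cell or summed over a pool. A cell was said to hold a gene at 5 reads or more. Intervals are at 95%. Those of levels and ratios treat each read as an independent count, and they are too narrow because PCR copies of 1 molecule are each counted. Those of shares treat the cells of a pool as independent draws. None of them covers differences between animals or sorts. The only repeat is the ins+ gate, sorted on plate 4 and plate 3. Its 7 measured factors differed between plate 4 and plate 3 by ratios of 0.740, for rfx6, to 1.63, for insm1b. This repeat is itself rough for the factors read in few ins+ cells: the log2 ratio of rfx6 was -1.08 in place of -0.42 without the top cell of each pool, and that of foxa2 1.02 in place of -0.06 without the cells that held much of another hormone (over 5% of reads).

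The kept cells had between 84778 and 895868 gene reads. The median cell had 4999 detected genes in the sst1.1+ ins+ pool, 3616 in the sst1.1+ pool, and 2746.5 and 2564 in the ins+ pools of plates 4 and 3. Shares of cells were also computed after each cell was thinned to 100000 reads. Thinning matched the reads but not the detected genes, whose medians were then 4202.5, 3131, 2475.5 and 2318 in the same order. The hormones matched the gates in most cells, with a median of 202351 CPM ins and 128368 CPM sst1.1 in sst1.1+ ins+ cells, 134.6 CPM ins and 255477 CPM sst1.1 in sst1.1+ cells, and 375017 and 406364 CPM ins in ins+ cells of plates 4 and 3. Some cells went against their label. In the sst1.1+ gate, cell 27 held 1057 CPM sst1.1 beside 149563 CPM of the glucagon gene gcga. ins+ cell 1 of plate 4 held 194330 CPM sst1.1, and sst1.1+ ins+ cell 6 held 174 CPM ins beside 383405 CPM sst1.1. More than 5% of reads fell on gcga, gcgb, sst1.2, sst2 and ghrl, hormones of other islet cells, in 7 sst1.1+ ins+ cells, 15 sst1.1+ cells, 1 ins+ cell of plate 4 and 3 of plate 3. For neurod1, isl1, insm1b and foxa2, values are also given without these cells over 5% in other hormones.

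**Figure D1:**
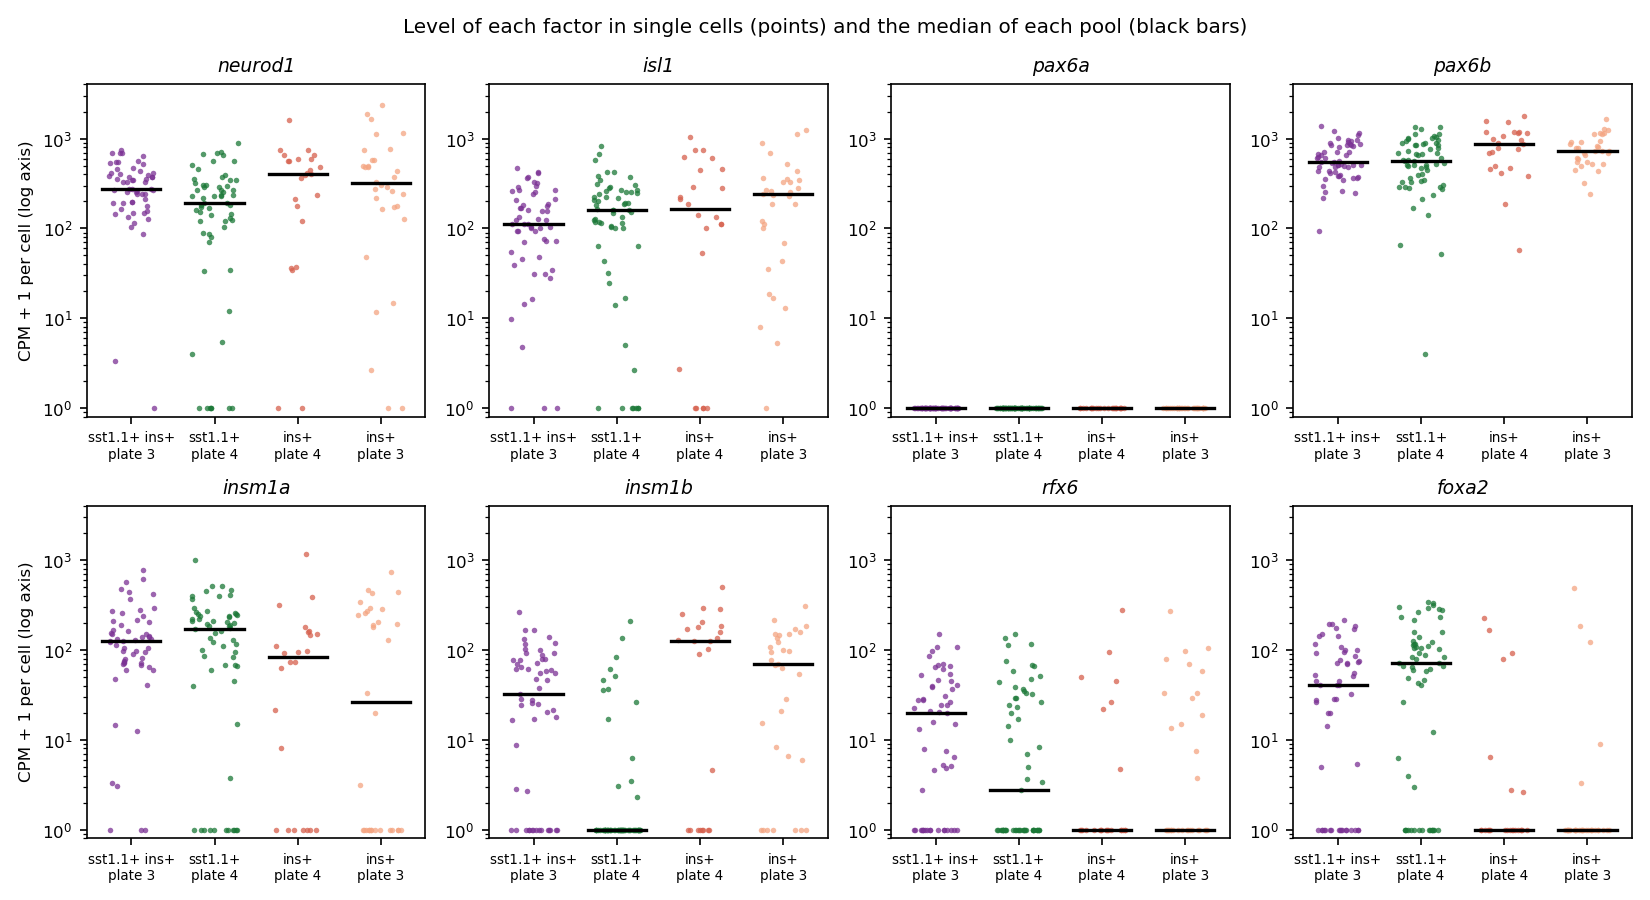
Each panel shows 1 gene, with every kept cell as a point at its CPM plus 1 on a log axis and the median of each pool as a black bar; the pools run from sst1.1+ ins+ on the left to ins+ of plate 3 on the right. pax6b lies well above 0 in nearly all cells, pax6a is at 0 in all, most sst1.1+ cells are at 0 for insm1b, and most ins+ cells are at 0 for foxa2.

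PAX6 is a paired-domain and homeodomain factor that acts on hormone genes in the islet, and of its zebrafish copies these cells gave reads for pax6b alone. pax6b had at least 1 read in 174 of 174 kept cells and at least 5 in 173. Its level was 599 CPM in sst1.1+ ins+ cells, 616 CPM in sst1.1+ cells, 870 CPM in ins+ cells of plate 4 and 781 CPM in ins+ cells of plate 3. Its ratio was 0.708 (0.692 to 0.725) for sst1.1+ against ins+ cells on plate 4 and 0.767 (0.748 to 0.786) for sst1.1+ ins+ against ins+ cells on plate 3, so both sst1.1 pools were lower than ins+ by less than 1.5-fold. In the plate rows that both gates share the log2 ratio was -0.97 in place of -0.50 on plate 4, and turned to 0.11 in place of -0.38 on plate 3. The median of all genes in those rows was 0.92 on plate 4 and -0.25 on plate 3.

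Single cells covered a wide and shared range of pax6b. The lowest, median and highest levels were 93.6, 543 and 1365 CPM in sst1.1+ ins+ cells, 2.9999, 563 and 1360 CPM in sst1.1+ cells, 56.96, 876 and 1771 CPM in ins+ cells of plate 4, and 239, 734 and 1655 CPM in ins+ cells of plate 3. All pools overlapped, and the lowest cell of all, an sst1.1+ cell, had 711 detected genes and held none of the 8 factors at 5 reads. The ratio of sst1.1+ ins+ to sst1.1+ cells was 0.972 (0.953 to 0.992), a smaller gap than between the 2 ins+ pools, at 1.11.

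pax6a had 0 reads in all 186 cells, where 3 counts would be 0.0342 CPM of the 87650273 gene reads counted in the kept cells. A count of 0 was not rare in the table, since 10831 of the 31953 gene rows, or 33.9%, had no read in any cell. In the RefSeq gene table of another assembly, pax6a overlaps dnajc24, which had 507 reads in 17 cells here. How the counting treated reads that fall on overlapping genes is not given in the sources used here, so the 0 reads of pax6a cannot be told apart from reads left uncounted, and they set no limit on its expression. The same table lists a long noncoding RNA that overlaps pax6b, so the pax6b count may be shared.

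neurod1 encodes a basic helix-loop-helix factor that acts on the insulin gene in mammals, and isl1 a LIM-homeodomain factor of islet cells and motor neurons. Both were read in most cells of every gate, and in summed reads both were lower in the pools that carried sst1.1 than in the ins+ pool of the same plate, by less than 2-fold. neurod1 was held by 55 of 57 sst1.1+ ins+ cells, 52 of 61 sst1.1+ cells, 22 of 24 ins+ cells of plate 4 and 27 of 32 ins+ cells of plate 3. isl1 was held by 52, 51, 18 and 28 cells of the same pools.

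The neurod1 level was 321 CPM in the sst1.1+ ins+ pool, 235 CPM in the sst1.1+ pool, 425 CPM in ins+ cells of plate 4 and 487 CPM in ins+ cells of plate 3. The median cell stood at 277, 191, 407 and 317 CPM in the same order, and the highest cells at 746, 882, 1623 and 2357 CPM, while every pool had cells at 0. The pools thus overlapped, and ins+ cells reached the top of the range. The ratio was 0.552 (0.533 to 0.571) for sst1.1+ against ins+ cells on plate 4, a larger gap than between the 2 ins+ pools, where plate 4 against plate 3 gave 0.874 (0.842 to 0.906). It was 0.660 (0.639 to 0.682) for sst1.1+ ins+ against ins+ cells on plate 3, and there the median cells, 277 and 317 CPM, stood closer than the pools. On plate 3 the sign turned with mean log2 levels over cells, at a log2 ratio of 0.32 in place of -0.60. The median of all genes was then 0.84, so neurod1 stayed below it. In the shared row the log2 ratio of neurod1 was -1.55.

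Within the sst1.1+ gate, neurod1 moved with the hormones taken as those of other islet cells. It reached 405 CPM over the 15 sst1.1+ cells with more than 5% of reads in those hormones, all of which held it, against 188 CPM over the other 46 cells, of which 37 held it. Without such cells in either pool, the log2 ratio of sst1.1+ to ins+ on plate 4 was -1.15, past 2-fold, in place of -0.86. In the sst1.1+ ins+ gate no such gap was seen, with 336 CPM in the 7 cells above that mark and 319 CPM in the other 50. The ins+ pools ran the same way as sst1.1+ cells, in few cells. On plate 3 neurod1 was at 821 CPM in 3 ins+ cells above the mark and 452 CPM in the other 29. On plate 4 it was at 558 CPM in 1 ins+ cell and 419 CPM in the other 23. The 15 sst1.1+ cells also had more detected genes, with a median of 5055 against 3392.5, and the part of this was not tested.

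The isl1 level was 150 CPM in the sst1.1+ ins+ pool, 184 CPM in the sst1.1+ pool, 254 CPM in ins+ cells of plate 4 and 277 CPM in ins+ cells of plate 3. The median cells stood at 112, 159, 163 and 239 CPM, the highest cells at 471, 818, 1042 and 1231 CPM, and every pool had cells at 0. The ratio was 0.540 (0.517 to 0.565) for sst1.1+ ins+ against ins+ cells on plate 3 and 0.726 (0.696 to 0.758) for sst1.1+ against ins+ cells on plate 4. The plate 4 ratio is small beside the cells: their medians nearly met, and taken over medians of cells or mean log2 levels the difference was between -0.04 and 0.24 on the log2 scale. With mean log2 levels the median of all genes was 0.35. In the shared rows the isl1 gap was wider, at -1.34 on plate 4 and -1.78 on plate 3, where the median of all genes was 0.92 and -0.25. On plate 3, 3 ins+ cells over 5% in other hormones gave 24.2% of the isl1 reads of their pool. Without the cells over 5%, isl1 was at 144 CPM in sst1.1+ ins+ and 232 CPM in ins+ cells of plate 3. On plate 4 it was then at 193 CPM in sst1.1+ and 245 CPM in ins+ cells. The RefSeq table lists 2 uncharacterised genes that overlap isl1, so its count may be shared.

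**Figure D2:**
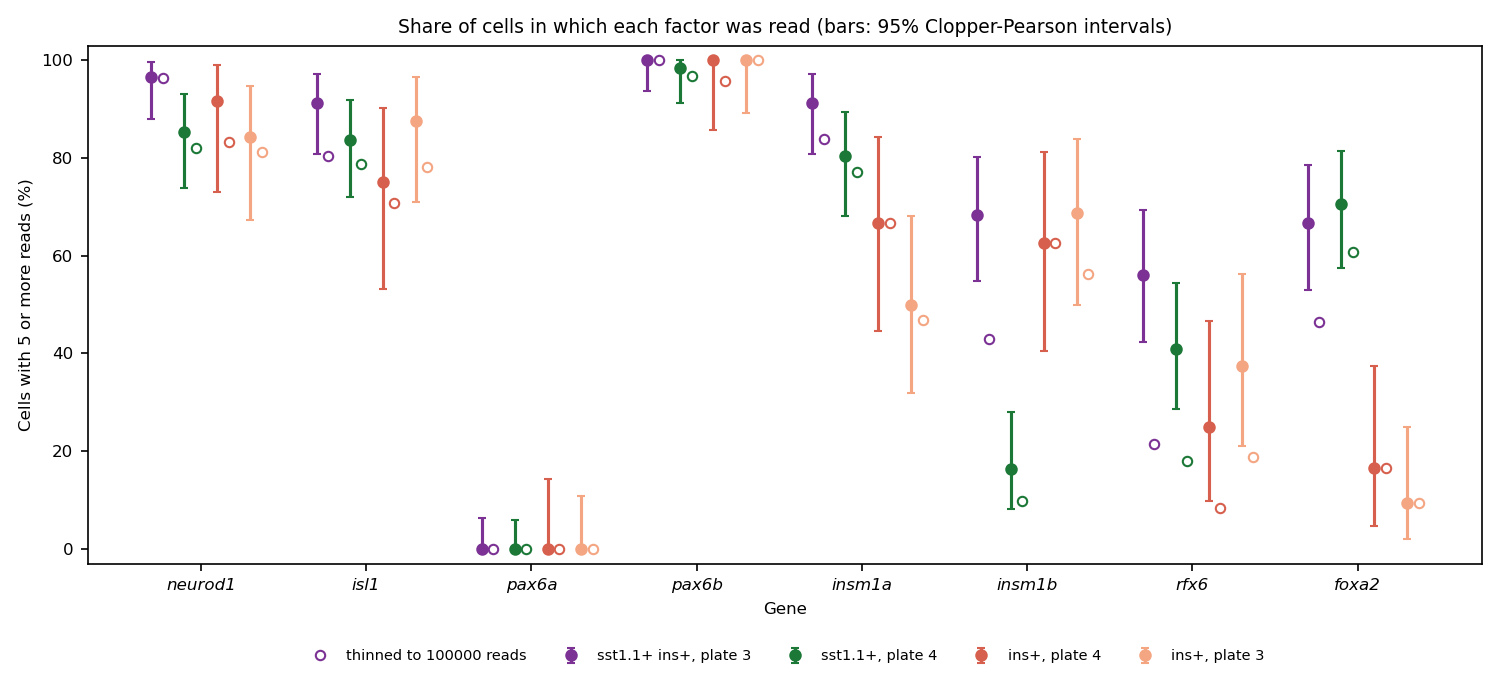
The share of cells with 5 or more reads of each gene is shown for the 4 pools as filled points with 95% Clopper-Pearson intervals, and after thinning to 100000 reads per cell as open points. insm1b is lowest in sst1.1+ cells at 16.4% and foxa2 is lowest in the ins+ pools at 16.7% and 9.38%, while the intervals of neurod1, isl1 and pax6b overlap between all pools.

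insm1a and insm1b encode zinc-finger factors, and in mammals INSM1 acts as a repressor needed for endocrine differentiation in pancreas, gut and adrenal. The copies were read in different patterns. In summed reads insm1a was at similar levels in the 4 pools, with 163 CPM in sst1.1+ ins+ cells, 170 CPM in sst1.1+ cells, 144 CPM in ins+ cells of plate 4 and 142 CPM in ins+ cells of plate 3. The median cells were further apart, at 123, 169, 81.6 and 25.4 CPM, and so were the shares of cells: 52 of 57 sst1.1+ ins+ cells (91.2%, 80.7% to 97.1%), 49 of 61 sst1.1+ cells (80.3%, 68.2% to 89.4%), 16 of 24 ins+ cells of plate 4 (66.7%, 44.7% to 84.4%) and 16 of 32 of plate 3 (50%, 31.9% to 68.1%) held it. The ins+ pools thus had a similar summed level in fewer cells, and in plate 4 a single ins+ cell at 1178 CPM gave 37.7% of the pool's insm1a reads. The ratio of sst1.1+ to ins+ cells on plate 4 was 1.19 (1.13 to 1.25) with that cell, and without the top cell of each pool the log2 ratio was 0.77 in place of 0.25. On plate 3 the log2 ratio of sst1.1+ ins+ to ins+ cells was 0.20 in summed reads, 2.32 in mean log2 levels over cells and -1.08 in the shared row, so its direction changed with the cells and the summary used. The median of all genes was -0.08, 0.84 and -0.25 in the same order. A long noncoding RNA overlaps insm1a in the RefSeq table. At 100000 reads the shares kept that order, with 83.9%, 77.0%, 66.7% and 46.9%.

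insm1b was 49.8 CPM in sst1.1+ ins+ cells, 10.004 CPM in sst1.1+ cells, 125 CPM in ins+ cells of plate 4 and 76.9 CPM in ins+ cells of plate 3. The median sst1.1+ ins+ cell had 31.7 CPM, the median sst1.1+ cell had 0, and the median ins+ cells of plates 4 and 3 had 124 and 67.99 CPM. The highest cells were at 261, 208, 506 and 304 CPM, so the ranges overlapped although most sst1.1+ cells had no read. The gene was held by 39 of 57 sst1.1+ ins+ cells, 10 of 61 sst1.1+ cells, 15 of 24 ins+ cells of plate 4 and 22 of 32 of plate 3, and at 100000 reads per cell by 42.9%, 9.84%, 62.5% and 56.3%.

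Against ins+ on plate 4, insm1b was 12.5-fold lower in sst1.1+ cells, with a log2 ratio of -3.52. It was the only factor of the 7 past 2-fold in that direction, in a comparison where 17.1% of the 7547 genes at 10 CPM or more were over 2-fold lower, and 0.729% of those genes had a lower ratio. The sst1.1+ ins+ pool had 4.98-fold (4.42 to 5.62) more insm1b than the sst1.1+ pool, where 4.8% of 6981 genes were over 2-fold higher; gate and plate cannot be told apart there. Against ins+ on plate 3 the ratio of sst1.1+ ins+ cells was 0.647 (0.596 to 0.702), no larger a gap than between the 2 ins+ pools, at 1.63 (1.51 to 1.76).

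Nearly all insm1b reads of the sst1.1+ gate came from cells with more than 5% of reads in the set taken as other hormones. The 10 sst1.1+ cells with insm1b each had between 146481 and 314432 CPM in gcga, gcgb, sst1.2, sst2 and ghrl together; 7 of them had more than 5% of reads in gcga and gcgb, and 4 in sst1.2 and sst2, 1 cell being in both counts. Put the other way, insm1b was held by 10 of the 15 sst1.1+ cells with more than 5% of reads in other hormones (66.7%, 38.4% to 88.2%) and by 0 of the other 46 (0% to 7.71%). The 15 cells were at 46.3 CPM and gave 99.1% of the pool's insm1b reads, against 0.112 CPM and at most 1 read per cell in the other 46. Cell 27 was the highest, at 208 CPM, and is the cell with 1057 CPM sst1.1 and 164575 CPM gcgb; without it and 1 other sst1.1+ cell with under 5% of reads in sst1.1, the pool was at 6.93 CPM, with 9 of 59 cells.

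The 15 cells had more detected genes, with a median of 5055 against 3392.5 in the 46. At 100000 reads insm1b was held by 6 of 15 against 0 of 46 cells, with median detected genes still apart at 4229 and 3038.5. Wells with more than 1 cell were not called, and their part in the result was not tested. In the sst1.1+ ins+ gate insm1b was held by 6 of 7 cells over that mark (85.7%, 42.1% to 99.6%; 74.7 CPM) and by 33 of the other 50 (66%, 51.2% to 78.8%; 46.4 CPM), and at 100000 reads by 6 of 7 and 18 of 49, the same direction as in sst1.1+ cells. There, however, most cells under the mark held the gene at full depth, as did 14 of 23 such ins+ cells of plate 4 and 21 of 29 of plate 3. The difference between gates was not tested. Without cells over that mark, the log2 ratio of insm1b was -6.80 for sst1.1+ against ins+ on plate 4 and 5.41 for sst1.1+ ins+ against sst1.1+. Both rest on 3 insm1b reads, at 0.112 CPM, in the 46 sst1.1+ cells, so the 1 CPM added to each level largely sets them.

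**Figure D3:**
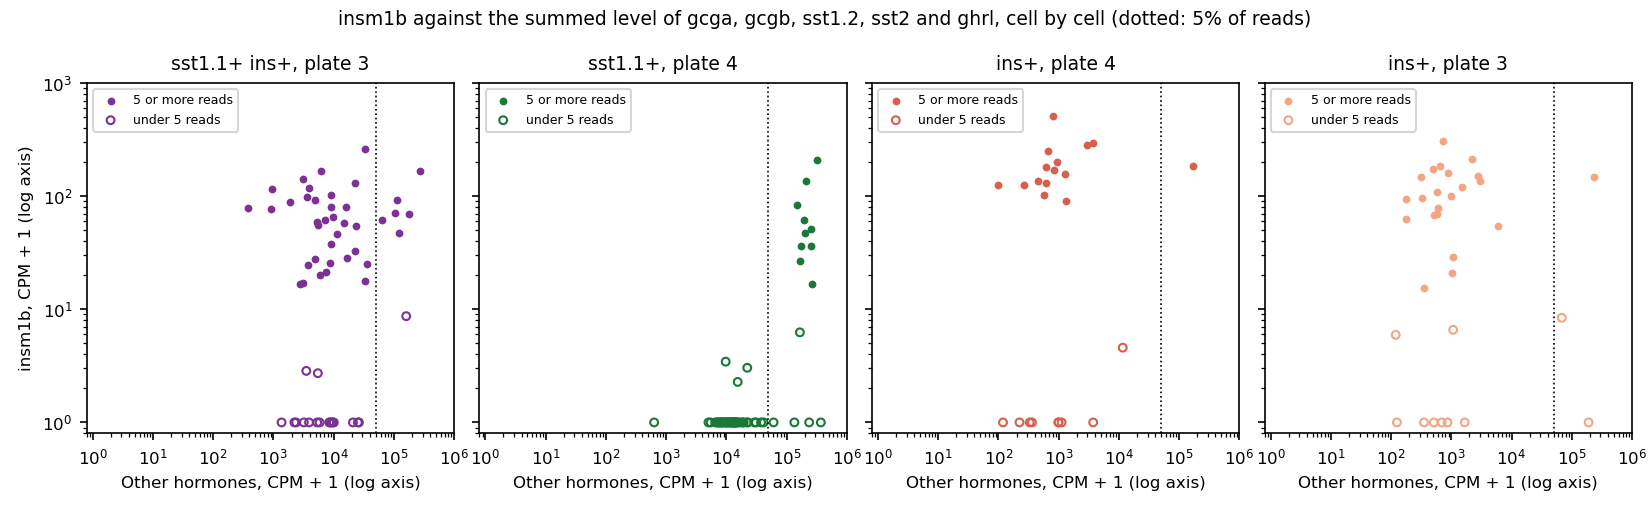
Each point is a kept cell, with the summed CPM plus 1 of gcga, gcgb, sst1.2, sst2 and ghrl on the horizontal log axis and insm1b CPM plus 1 on the vertical log axis; filled points had 5 or more insm1b reads and the dotted line marks 5% of reads. In the sst1.1+ pool the 10 filled points all lie right of the line, while in the sst1.1+ ins+ pool 33 of 39 lie left of it.

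The mix of the 2 copies also differed between pools, in reads and in the cells that held them. Whether the copies met in a cell more or less often than their separate shares give was not tested. Of all reads on insm1a and insm1b, insm1b took 23.4% (22.3% to 24.5%) in sst1.1+ ins+ cells and 5.54% (4.99% to 6.14%) in sst1.1+ cells. It took 46.6% (44.9% to 48.3%) in ins+ cells of plate 4 and 35.2% (33.5% to 36.9%) in those of plate 3. Without the top cell of each copy, the share in ins+ cells of plate 4 was 55.7%. Both copies were held together by 37 of 57 sst1.1+ ins+ cells, 9 of 61 sst1.1+ cells, 10 of 24 ins+ cells of plate 4 and 9 of 32 of plate 3. In the sst1.1+ pool 40 cells held insm1a without insm1b and 1 the reverse, whereas in ins+ cells of plate 3 7 held insm1a alone and 13 insm1b alone. In every pool at least 1 copy was held by all but 3 to 11 cells.

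rfx6 encodes a winged-helix factor that acts early in endocrine differentiation in fish and mammals. It was read at low levels that were close between gates: 24.6 CPM (22.8 to 26.5) in sst1.1+ ins+ cells, 21.9 CPM (20.4 to 23.6) in sst1.1+ cells, 20.7 CPM (18.3 to 23.4) in ins+ cells of plate 4 and 28.01 CPM (25.3 to 30.98) in those of plate 3. The ratio was 1.06 (0.918 to 1.22) for sst1.1+ against ins+ cells on plate 4 and 0.877 (0.773 to 0.998) for sst1.1+ ins+ against ins+ cells on plate 3. Both were closer to 1 than the ratio of the 2 ins+ pools, at 0.740, but the ins+ pool of plate 4 rests on 1 cell.

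The cells that held rfx6 were 32 of 57, 25 of 61, 6 of 24 and 12 of 32 in the same order of pools, but at 100000 reads these shares came to 21.4%, 18.03%, 8.33% and 18.8%, so they were lower and closer together at a matched number of reads. A single ins+ cell of plate 4, at 276 CPM, gave 56.5% of that pool's rfx6 reads, and without the top cell of each pool the log2 ratio of sst1.1+ to ins+ on plate 4 was 0.97 in place of 0.08. The RefSeq table lists a long noncoding RNA and tdrd15 as overlapping rfx6.

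foxa2 was the factor most clearly higher in the gates that carried sst1.1. Its level was 55.5 CPM (52.7 to 58.3) in sst1.1+ ins+ cells, 93.7 CPM (90.5 to 97.02) in sst1.1+ cells, 26.2 CPM (23.5 to 29.2) in ins+ cells of plate 4 and 27.4 CPM (24.7 to 30.4) in those of plate 3. It was held by 38 of 57 sst1.1+ ins+ cells (66.7%, 52.9% to 78.6%), 43 of 61 sst1.1+ cells (70.5%, 57.4% to 81.5%), 4 of 24 ins+ cells of plate 4 (16.7%, 4.74% to 37.4%) and 3 of 32 of plate 3 (9.38%, 1.98% to 25.02%). The median cell was at 39.99 CPM and 70.7 CPM in the 2 sst1.1 gates and at 0 in both ins+ pools, and the highest cells were at 214, 338, 224 and 487 CPM, so a few ins+ cells reached the level of the sst1.1 gates or passed it.

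On plate 4 foxa2 was 3.58-fold (3.19 to 4.02) higher in sst1.1+ than in ins+ cells, and it was 1 of 7 factors past 2-fold in that direction, where 22.3% of all measured genes were. On plate 3 its ratio of 2.02 (1.80 to 2.27) for sst1.1+ ins+ against ins+ cells came to 0.99 on the log2(CPM + 1) scale, just short of the 2-fold line, so 0 of 7 factors were past it in either direction; 12.8% of 6824 genes were over 2-fold higher and 12.6% lower. With the alternatives tried, the log2 ratio lay between 0.90 and 5.62 on plate 3 and between 1.65 and 6.60 on plate 4. The upper ends came from the shared plate rows, with 1 foxa2 read in 9 ins+ cells and 0 in 3 ins+ cells. There the 1 CPM added to each level largely sets the ratio. Between the sst1.1 gates the ratio of sst1.1+ ins+ to sst1.1+ cells was 0.592 (0.556 to 0.629).

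The ins+ values rest on very few cells. A single cell gave 38.9% of the foxa2 reads of ins+ cells of plate 4 and another 53.1% of those of plate 3, and 3 cells gave 85.1% and 99.5%. Of the 7 ins+ cells that held foxa2, 4 also had more than 5% of their reads in sst1.1 or in those other hormones. On plate 3, cell 6 (185 CPM foxa2) had 164191 CPM sst1.2 and 73887 CPM sst2, and cell 18 (487 CPM) had 60025 CPM gcga. On plate 4, cell 12 (224 CPM) had 110896 CPM gcga, and cell 1 (78.7 CPM) had 194330 CPM sst1.1.

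The remaining 3 ins+ cells with foxa2, at 121, 164 and 92.1 CPM, had between 368690 and 444285 CPM ins and at most 697 CPM in any of sst1.1, gcga, gcgb, sst1.2, sst2 and ghrl. Without the cells over 5% other hormones, foxa2 was at 7.75 CPM in 1 of 29 ins+ cells of plate 3 and 16.8 CPM in 3 of 23 of plate 4, against 52.8 CPM in 32 of 50 sst1.1+ ins+ cells and 100.3 CPM in 29 of 46 sst1.1+ cells. The log2 ratio was then 2.62 on plate 3 and 2.51 on plate 4. In the sst1.1+ gate foxa2 was at 69.7 CPM in the 15 cells over that mark and 100.3 CPM in the other 46, while its share of cells ran the other way, with 14 of 15 and 29 of 46 (10 of 15 and 27 of 46 at 100000 reads).

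Sort gates filled different rows of each plate apart from 1 row of each, and in those rows foxa2 and insm1b kept their direction. In row C of plate 4, foxa2 was 96.3 CPM in 8 sst1.1+ cells and 0 in 3 ins+ cells, and insm1b 27.6 CPM against 177 CPM. Row C too holds few cells, and the median log2 ratio of all genes was 0.92 there. In row F of plate 3, foxa2 was 62.01 CPM in 3 sst1.1+ ins+ cells against 0.278 CPM in 9 ins+ cells, and insm1b 8.32 CPM against 124 CPM. Of the reads in these 3 cells, 62 of 82 for foxa2 came from cell 18, and all 11 for insm1b from cell 12. Cell 6, with 174 CPM ins, is also among them, so the directions in this row rest on very few cells. Not every factor kept its direction in row F, where pax6b was 793 CPM against 735 CPM and insm1a 96.8 CPM against 206 CPM.

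The summed markers of duct cells, like foxa2, were higher in the pools that carried sst1.1 than in the ins+ pools. Summed over the list of 11, they were at 346 CPM in sst1.1+ ins+ cells, 596 CPM in sst1.1+ cells, 145 CPM in ins+ cells of plate 4 and 205 CPM in those of plate 3, with 10, 9, 7 and 8 of the 11 read. The single cells ran to at most 1271, 1839, 511 and 1382 CPM. Most of the sum was the keratins krt8 and krt18, the adhesion gene epcam and anxa4. The duct factor sox9b was at 0 in sst1.1+ cells and at most 0.256 CPM elsewhere. The chloride channel gene cftr was at 0 in sst1.1+ cells and in ins+ cells of plate 3, and at 0.183 CPM in sst1.1+ ins+ cells. In ins+ cells of plate 4 cftr was at 1.91 CPM and sox9b at 0.239 CPM, so on plate 4 both went the other way. On plate 3, anxa4 and krt4 went the other way, at 35.6 and 0.073 CPM in sst1.1+ ins+ cells against 53.4 and 5.03 CPM in ins+ cells. The summed acinar, mesenchymal and neural markers were also highest in the sst1.1+ pool, at 174, 31.6 and 8.72 CPM. Those sums lay in few cells, with the highest sst1.1+ cells at 15407.5, 1582 and 119 CPM and the median cells at 2.09, 1.47 and 0. The mesenchymal gene acta2, at 25.8 CPM, was held by 1 cell. The part of the duct markers in the foxa2 result was not tested.

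**Figure D4:**
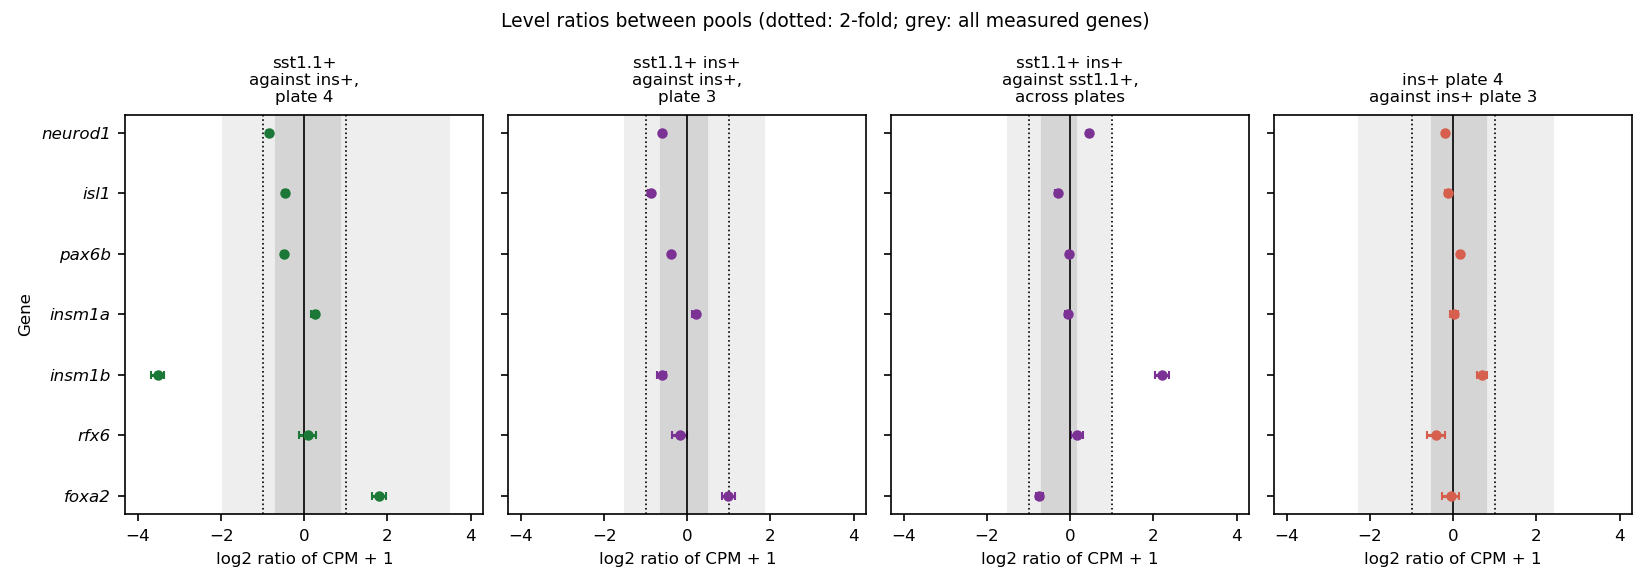
The log2 ratio of CPM plus 1 is shown for the 7 measured factors in each comparison, with 95% counting intervals; dotted lines mark 2-fold and the grey bands hold the middle 50% and 90% of all genes at 10 CPM or more. Only insm1b and foxa2 lie past 2-fold on plate 4, at -3.52 and 1.80, and only insm1b between the sst1.1 gates, at 2.21.

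Beside all genes, the factors as a group were not far from the middle. Their median log2 ratio was -0.46 for sst1.1+ against ins+ on plate 4, where the median of all measured genes was 0.04, and -0.38 for sst1.1+ ins+ against ins+ on plate 3, where it was -0.08. It was -0.04 for sst1.1+ ins+ against sst1.1+, where all genes had -0.26, and -0.06 for ins+ of plate 4 against plate 3, where all genes had 0.13. Between the 2 ins+ pools 0 of 7 factors were past 2-fold, while 35% of 7168 genes were past that line in either direction. Between the sst1.1 gates 0 of 7 were over 2-fold lower, where 13.3% of genes were.

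A 1.5-fold line adds neurod1 to the lower side on plate 4, where 2 of 7 factors were then lower and 27.7% of genes were, and foxa2 stayed the 1 higher, with 31.7% of genes. On plate 3 it puts neurod1, isl1 and insm1b on the lower side, 3 of 7 against 26.4% of genes, and foxa2 on the higher side, 1 of 7 against 21.8%. Between the sst1.1 gates insm1b was the 1 higher, with 10.7% of genes, and foxa2 the 1 lower, with 29.6%. Between the ins+ pools insm1b was the 1 higher in plate 4, with 31.2% of genes, and 0 of 7 were lower, with 22.9%.

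Counted together in each cell, foxa2 and insm1b fell in different combinations across the gates. Whether they met more or less often than their separate shares give was not tested. Of 57 sst1.1+ ins+ cells 25 held both, 13 foxa2 alone, 14 insm1b alone and 5 neither. Of 61 sst1.1+ cells 10 held both, 33 foxa2 alone, 0 insm1b alone and 18 neither. In ins+ cells the counts were 3, 1, 12 and 8 of 24 on plate 4 and 1, 2, 21 and 8 of 32 on plate 3. All 10 sst1.1+ cells with insm1b thus held foxa2 as well. They were among the 15 sst1.1+ cells over 5% in other hormones, of which 14 held foxa2. At 100000 reads 12 of 56 sst1.1+ ins+ cells still held both, against 5 of 61 sst1.1+ cells and 3 of 24 and 1 of 32 ins+ cells. At that depth 14 sst1.1+ ins+ cells held foxa2 alone, 12 insm1b alone and 18 neither. Of the sst1.1+ cells, 32 then held foxa2 alone, 1 insm1b alone and 23 neither.

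**Figure D5:**
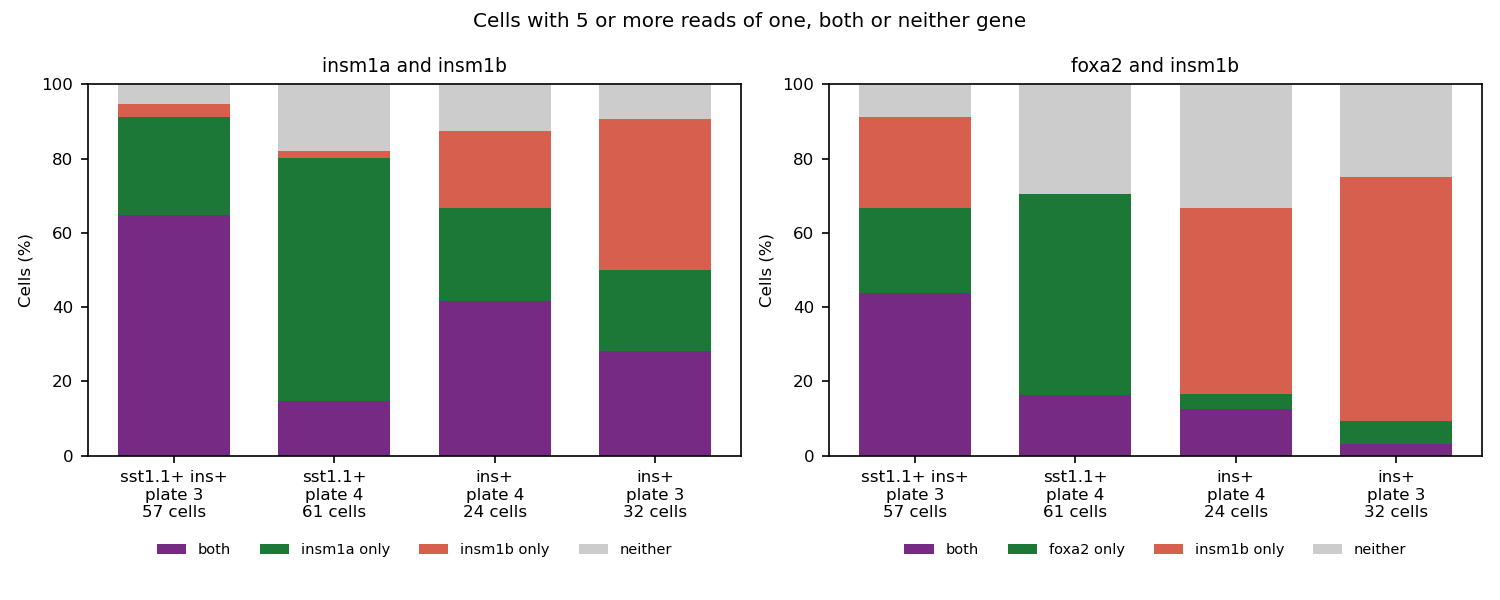
Stacked bars give the percentage of cells in each pool that held both genes, one of them or neither at 5 or more reads, for insm1a with insm1b on the left and foxa2 with insm1b on the right. Cells with foxa2 alone are most common in the sst1.1+ pool (33 of 61), cells with insm1b alone in the ins+ pools (12 of 24 and 21 of 32), and cells with both in the sst1.1+ ins+ pool (25 of 57).

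A single cell held a median of 6 of the 8 factors in the sst1.1+ ins+ pool, 5 in the sst1.1+ pool, 4.5 in ins+ cells of plate 4 and 4 in those of plate 3. At least 5 were held by 50 of 57, 36 of 61, 12 of 24 and 13 of 32 cells. Thinned to 100000 reads, the medians were 5, 4, 4 and 4, and at least 5 factors were held by 32 of 56 sst1.1+ ins+ cells (57.1%, 43.2% to 70.3%), 25 of 61 sst1.1+ cells (40.98%, 28.6% to 54.3%), 8 of 24 ins+ cells of plate 4 (33.3%, 15.6% to 55.3%) and 9 of 32 of plate 3 (28.1%, 13.7% to 46.7%). The intervals of all 4 pools overlap. Median detected genes per cell ran in the same order of pools, at 4999, 3616, 2746.5 and 2564. After thinning they were 4202.5, 3131, 2475.5 and 2318. Whether the number of factors per cell goes beyond the number of detected genes was not tested.

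Other islet transcription factors were also found on both sides. Of 57 listed, 18 were measured on plate 4, and 7 (38.9%) were over 2-fold higher and 4 (22.2%) lower in sst1.1+ than in ins+ cells, where 22.3% and 17.1% of all measured genes were. On plate 3, 5 of 20 (25%) were over 2-fold higher and 3 (15%) lower in sst1.1+ ins+ than in ins+ cells, where 12.8% and 12.6% of all genes were. The list was chosen with earlier results of these data known, and it holds genes that part these gates, such as elf3, HHEX and nkx6.2. Its shares are therefore no independent comparison with all genes. nkx2.2a, a homeodomain factor that in mammals is also shared by several islet cell types, was at 61.98 CPM in sst1.1+ cells and 140 CPM in ins+ cells of plate 4, a ratio of 0.443 (0.416 to 0.472), and at 67.5 CPM in sst1.1+ ins+ cells against 130 CPM in ins+ cells of plate 3. foxa3, a relative of foxa2, was at 126 CPM in sst1.1+ ins+ cells and 125 CPM in sst1.1+ cells, and at 184 and 141 CPM in ins+ cells of plates 4 and 3, so it did not follow foxa2. myt1b, a zinc-finger gene whose mammalian relatives act in endocrine differentiation, was at 81.3 CPM in sst1.1+ ins+ cells and 69.8 CPM in ins+ cells of plate 3.

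Genes of the endocrine secretory programme, which carry hormone processing and granule release, were on both sides as well. Of 33 measured on plate 4, 6 (18.2%) were over 2-fold higher and 5 (15.15%) lower in sst1.1+ than in ins+ cells, and of 32 on plate 3, 4 (12.5%) were higher and 4 lower in sst1.1+ ins+ than in ins+ cells. These shares lie near those of all genes, and this list too was chosen with earlier results of these data known. chga, which encodes a granule protein, was at 320 CPM in sst1.1+ ins+ cells and 125 CPM in ins+ cells of plate 3. The granin gene scg2b was at 1767 CPM in sst1.1+ cells and 486 CPM in ins+ cells of plate 4.

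Across single cells within pools, few genes followed a factor closely. Among 2880 candidate genes read in at least 20% of the cells of every pool, the highest mean of the 4 within-pool Spearman correlations over 174 cells was 0.36, for foxa2 with the splicing factor gene tra2b, with a range of 0.08 to 0.66 over pools. kansl1b and cyb561 followed for foxa2 at 0.32 and 0.31. In the ins+ pools of plates 4 and 3, 17 of 24 and 27 of 32 cells had no foxa2 read, so most foxa2 ranks there were tied. The best for isl1 was hspa4a at 0.34, for rfx6 glulb at 0.34, for insm1a ilf3b at 0.34, for pax6b golga7 at 0.34 and for insm1b hexa at 0.34, and for neurod1 no gene reached 0.3. Between factors the highest mean was 0.23, for insm1a with foxa2. Such values are weak for sparse counts and share depth and pool, so they describe these cells only. Within the sst1.1+ ins+ gate, the correlations with the share of sst1.1 in the ins and sst1.1 reads lay between -0.26 for neurod1 and 0.14 for foxa2.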

How the data were processed

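Per the submitters' processing notes, reads were handled with Trim Galore, HISAT2 and featureCounts against GRCz11. The sources used here give no versions and no counting settings. The deposited table holds the authors' raw counts per gene and cell, and 0 of its columns lacked a sample. Cells with at least 500 genes and 50000 gene reads were kept (174 of 186). The 92 spike-in rows stayed out of totals. The EGFP row was counted in them, at 4020 CPM in sst1.1+ cells and 199 CPM in ins+ cells of plate 4. Counts were summed per gate and plate and scaled to CPM. Ratios have exact conditional binomial intervals, levels exact Poisson and shares Clopper-Pearson intervals, at 95%. A gene was measured at 10 CPM in either pool and past 2-fold on log2(CPM + 1). No doublet caller was run on these singly sorted cells. The computations used Python 3.11.15 (numpy 2.4.6, pandas 2.3.3, scipy 1.17.1) and, for TMM factors only, edgeR 4.0.16 in R 4.3.3, and were tested on simulated data.

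The 8 genes and the lists were chosen with earlier results of these data known. Beside the 8, named genes are the 3 most correlated per factor at a mean of 0.3 or more, and, of each list and comparison, examples from the 3 highest and 3 lowest ratios among genes at 50 CPM and in 50% of cells of the higher pool. Alternatives were other scalings, cell filters, pseudocounts, folds, thinning, shared plate rows, joined ins+ pools and leaving out cells; medians over cells and leaving out cells against their gate were added after seeing the data. Gene names follow the table; the RefSeq table, of another assembly, was used only for overlapping neighbours.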

Additional observations from a re-analysis of the deposited data

How the results depend on the processing

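foxa2 stayed higher and insm1b lower in sst1.1+ than in ins+ cells of plate 4 under all 15 alternatives, and likewise in sst1.1+ ins+ than in ins+ cells of plate 3. These alternatives reuse the same pools. The plate 3 ratio of insm1b, 0.647, was no larger a gap than between the 2 ins+ pools, at 1.63. At 5 reads insm1b was held by 68.4% of sst1.1+ ins+ and 68.75% of ins+ cells of plate 3. The number of factors past 2-fold moved. For sst1.1+ ins+ against ins+ on plate 3, 1 rather than 0 was higher with a 1.5-fold line, TMM factors, ins+ cells of both plates, mean CPM over cells, the shared plate row, thinning, and without the cell with most reads or the cells over 5% other hormones, and 3 with mean log2 levels or medians over cells; 3 were lower at 1.5-fold, 2 with medians and 4 in the shared row. For sst1.1+ against ins+ on plate 4, 2 were higher with mean log2 levels and 3 with medians, and 2 were lower at 1.5-fold, with medians, in the shared row, with a total without hormones and without the cells over 5% other hormones. For sst1.1+ ins+ against sst1.1+, 2 were higher with mean log2 levels or medians, and 1 was lower at 1.5-fold. For ins+ of plate 4 against plate 3, 1 was higher at 1.5-fold, with medians or without the cells over 5% other hormones, and 1 lower without the cell with most reads. The causes were not tested.

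Mean log2 levels put the median log2 ratio of all genes at 0.35 on plate 4, 0.84 on plate 3, 0.37 between the sst1.1 gates and 0.05 between the ins+ pools, and the shared row of plate 4 put it at 0.92. Between the sst1.1 gates it was -0.08 with TMM factors and -0.10 with a total without hormones, which gave -0.12 on plate 4, and TMM gave 0.0029 between the ins+ pools. No paired analysis was possible because the replicate numbers only count cells in accession order. With 1 pool per gate and plate, depth per cell and the number of cells limit low factors such as rfx6.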
